A study of Danio rerio with 6 samples.

Results

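The Piwi genes of the zebrafish, piwil1 (ziwi, ENSDARG00000041699) and piwil2 (zili, ENSDARG00000062601), were followed through the female and male germline. They are 2 of the 32253 features in the deposited expression table and were taken by these identifiers, which the reference gene names at hand pair with the same symbols. Levels were measured by RNA sequencing in 6 libraries of total RNA from adult wild-type fish of the TLAB strain, with no mutation, transgene or treatment in any of them. The groups were whole ovary dissected from females, mature oocytes (eggs) obtained by squeezing, and whole testis dissected from males, with 2 libraries each. The ages of the fish were not given in the sources used here. Nothing in the labels says whether the replicates came from different animals, so p-values measure only the spread between these libraries, which may be technical.

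Piwi proteins form the germline branch of the Argonaute family and are guided by piRNAs, short RNAs that direct them to the transcripts of transposable elements. In zebrafish both Piwi proteins are found in germ cells of both sexes, bind piRNAs and are needed for a functional germline. Without Ziwi, germ cells are lost, and without Zili they fail to differentiate. Piwi proteins work with Vasa and Tudor domain proteins in perinuclear granules called nuage, and Ziwi is passed from mother to embryo through the egg.

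Levels are given as FPKM, sequenced fragments corrected for transcript length in kilobases and for the size of the library, so genes of different length can be set side by side. In whole ovary piwil1 stood at 7.74 and 6.65 FPKM in replicates 1 and 2. In mature oocytes it stood at 4.98 and 5.76 FPKM. In whole testis it stood at 74.8 and 43.6 FPKM. Both testis libraries lay far above every female library, and the oocyte libraries lay just below the ovary libraries without overlap. The mean was 7.19 FPKM ± 0.77 (SD, n = 2) in ovary, 5.37 ± 0.548 (SD, n = 2) in oocyte and 59.2 ± 22.1 (SD, n = 2) in testis, so the testis mean was 8.23-fold that of ovary and 11.0-fold that of oocyte.

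The levels of piwil2 were spread over a much narrower range. In whole ovary it was at 28.5 and 29.2 FPKM, in mature oocytes at 25.4 and 15.7 FPKM and in testis at 37.6 and 27.5 FPKM. The testis libraries lay on either side of the ovary libraries, and both oocyte libraries lay below all of the others. Means were 28.8 FPKM ± 0.449 (SD, n = 2) in ovary, 20.5 ± 6.88 (SD, n = 2) in oocyte and 32.5 ± 7.13 (SD, n = 2) in testis. Both genes thus had the same order of means, testis above ovary above oocyte, but piwil2 spanned a 1.58-fold range between the outer tissues and piwil1 an 11.0-fold range.

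**Figure D1:**
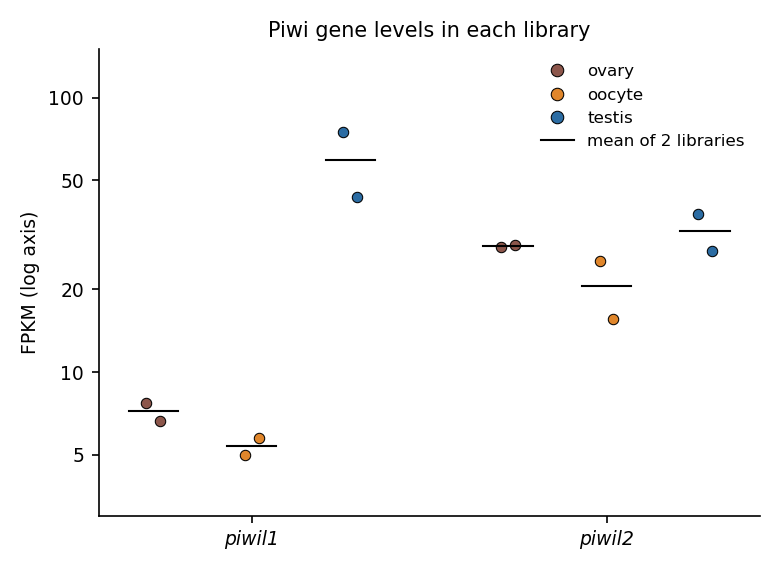
FPKM of piwil1 and piwil2 on a log axis, with each point a library, colours for the tissues and a line at the mean of 2 libraries. The testis points of piwil1, at 74.8 and 43.6 FPKM, lie above its 4 female points, whereas the piwil2 points of all tissues lie between 15.7 and 37.6 FPKM.

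A rank within a library is the same whatever factor the library is multiplied by. Counted from the highest of the 32253 features, piwil1 ranked 415 and 775 in testis, 5792 and 6205 in ovary, and 6768 and 6618 in oocyte. It was therefore within the top 1.29% and 2.4% of features in testis, and within 18% to 21% in the female libraries. The ranks of piwil2 were 765 and 1216 in testis, 2236 and 2240 in ovary, and 2875 and 4161 in oocyte. Both genes ranked higher in each testis library than in any female library, piwil2 by the smaller margin. A rise in rank in testis did not need a rise in FPKM. The piRNA pathway gene rnf17, at 9.44 to 11.9 FPKM in all 6 libraries, ranked 4587 and 4989 in ovary and 2322 and 2764 in testis. The higher ranks of piwil2 therefore do not by themselves show a higher FPKM in testis.

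Differences between tissues were tested with limma on log2(FPKM + 1) over the 13717 features with at least 1 FPKM in at least 2 libraries. A gene passed when its log2 difference was 1 or more in either direction and its p-value, after Benjamini-Hochberg adjustment over all of these features, was under 0.05. In the comparison of testis with ovary, piwil1 was higher by 2.83 on the log2 scale (SE 0.28, limma adjusted p = 0.000209), in both testis libraries. Of all features tested, 60.2% passed when testis was compared with ovary, 16.4% as higher and 43.8% as lower in testis. Passing was thus common, and on the deposited scale a higher level in testis was the minority direction. That did not hold after the median-of-ratios scaling described below. There 27% were higher and 22.9% lower in testis than in ovary, and 33.8% higher and 29.5% lower than in oocyte. Against oocyte, piwil1 was higher in testis by 3.19 (SE 0.28, limma adjusted p = 9.03e-05), where 67.9% of all features passed, 22.3% as higher and 45.6% as lower. By size these differences placed piwil1 at rank 590 and rank 594 of the 13717 features, counted from the largest increase in testis.

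Between the mature oocyte and the whole ovary, piwil1 did not pass. Its log2 difference of oocyte from ovary was -0.36 (95% confidence interval -1.05 to 0.32, limma adjusted p = 0.305), while 49% of all features passed in that comparison. The pattern of piwil1, higher in testis than in each female tissue with no call between oocyte and ovary, was shared by 1747 features, or 12.7% of those tested.

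None of the 3 comparisons passed for piwil2 on the deposited scale. Its log2 difference of testis from ovary was 0.15 (95% confidence interval -0.52 to 0.83, limma adjusted p = 0.634) and that of testis from oocyte was 0.66 (-0.01 to 1.34, limma adjusted p = 0.0656). The difference of oocyte from ovary was -0.51 (-1.18 to 0.17, limma adjusted p = 0.157). These last 2 values moved with the oocyte libraries. Without oocyte replicate 1 they were 0.99 (limma adjusted p = 0.0174) and -0.84 (limma adjusted p = 0.039), under the fold threshold, and without oocyte replicate 2 they were 0.33 and -0.18. These intervals do not show that the levels were equal, and 14.4% of all tested features (1975) likewise passed in no comparison.

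The result for piwil2 in testis depended on the scaling between libraries. On the deposited scale the median log2 difference of all tested features was -0.82 for testis from ovary and -0.79 for testis from oocyte. Measured from that median, piwil2 differed by 0.97 between testis and ovary and by 1.45 between testis and oocyte, and piwil1 by 3.65 and 3.99. After median-of-ratios scaling, which removes most of this shift, piwil2 was higher in testis than in ovary by 1.30 (limma adjusted p = 0.0071) and than in oocyte by 1.89 (limma adjusted p = 0.00102). On that scale piwil1 was higher by 3.95 (limma adjusted p = 5.19e-05) and 4.38 (limma adjusted p = 2.63e-05). The direction for piwil1 was the same on both scales, whereas a call for piwil2 was made on the second scale and not on the deposited one.

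The ratio of the 2 Piwi genes within a library does not change with the scaling of that library. The level of piwil1 was 0.271 and 0.228 of that of piwil2 in the ovary libraries, and 0.196 and 0.367 of it in the oocyte libraries. In testis the ratio was 1.99 and 1.58, so the more abundant Piwi transcript was piwil2 in each of the 4 female libraries and piwil1 in both testis libraries. As a share of the summed FPKM of both genes, piwil1 held 21.3% and 18.6% in ovary, 16.4% and 26.9% in oocyte, and 66.5% and 61.3% in testis. The mean log2 ratio, with 1 FPKM added to each gene, was -1.87 ± 0.158 (SD, n = 2) in ovary, -1.72 ± 0.594 (SD, n = 2) in oocyte and 0.81 ± 0.232 (SD, n = 2) in testis.

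Testis thus differed from ovary by 2.68 and from oocyte by 2.53 in this log2 ratio, which is 6.39-fold and 5.78-fold. Unlike the plain ratio, the log2 ratio depends somewhat on scaling, through the 1 FPKM added. With 0.1 FPKM added the differences were 2.82 and 2.70. Neither pair of groups overlapped. The exact two-sided permutation test of each gave p = 0.333, the smallest value that 2 libraries against 2 can give. After adjustment over the 3 pairs of tissues the permutation p was 0.5. Over all 6 libraries, the exact permutation test of the variance between tissues gave p = 0.2, above its smallest possible value of 0.0667. Oocyte and ovary overlapped in the ratio and differed by 0.15 (exact permutation p = 1), and without oocyte replicate 2 that small difference was -0.27. In a design of this size no such test can reach 0.05. The switch in which gene was the more abundant therefore rests on 2 testis and 4 female libraries.

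Whole organs hold germ cells at many stages and somatic cells, and in such bulk samples fewer cells of a type cannot be told apart from less RNA per cell. The Piwi genes were therefore set beside other germ cell genes in the same libraries. The RNA helicase gene ddx4 (vasa) was at 21.2 and 19.8 FPKM in ovary, 32.3 and 40.0 in oocyte, and 70.8 and 69.0 in testis. Other germ cell genes did not share that order. The RNA-binding protein gene dazl was highest in oocyte, at 159 and 239 FPKM, against 57.9 and 33.1 in ovary and 68.2 and 117 in testis. The translational regulator gene nanos3 was at 42.6 and 47.3 FPKM in ovary and 21.8 and 25.0 in oocyte, but only at 0.533 and 0.428 in testis, and dnd1, an RNA-binding protein gene needed for germ cell survival, was at 12.5 and 16.7 FPKM in testis against 31.8 to 45.8 in the female libraries.

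Relative to ddx4, piwil1 stood at 0.365 and 0.336 in ovary, 0.154 and 0.144 in oocyte and 1.06 and 0.632 in testis. The ratio was higher in each testis library than in any female library and lowest in the oocyte libraries. The same order of ratios was found against dazl, at 0.134 and 0.201 in ovary, 0.0313 and 0.0241 in oocyte and 1.10 and 0.371 in testis. Against dnd1 the testis ratios were 5.98 and 2.60 and the 4 female ratios were between 0.132 and 0.169, and against nanos3 they were 140 and 102 in testis and 0.141 to 0.23 in the female libraries. The higher piwil1 of testis was thus seen relative to each of these germ cell genes. Of these, nanos3 and dnd1 were themselves lower in testis than in both female tissues on the deposited scale. On that scale dazl was lower in testis than in oocyte (log2 difference -1.11, limma adjusted p = 0.0387). In these comparisons a ratio to such a gene rises in testis even for a gene at an unchanged level.

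For piwil2 the order turned with the gene it was compared to. Relative to ddx4 it was highest in ovary, at 1.35 and 1.47, with 0.786 and 0.392 in oocyte and 0.531 and 0.399 in testis. Relative to dazl it was 0.493 and 0.881 in ovary, 0.16 and 0.0656 in oocyte, and 0.552 and 0.234 in testis, with overlap between ovary and testis. Against dnd1 it was highest in testis, at 3.01 and 1.64, against 0.358 to 0.798 in the female libraries. Against nanos3 it was at 70.5 and 64.2 in testis and 0.617 to 1.17 in the female libraries. Of 27 comparisons of a Piwi ratio between a pair of tissues, 9 ratios in 3 pairs, none could give an exact permutation p under 0.333.

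**Figure D2:**
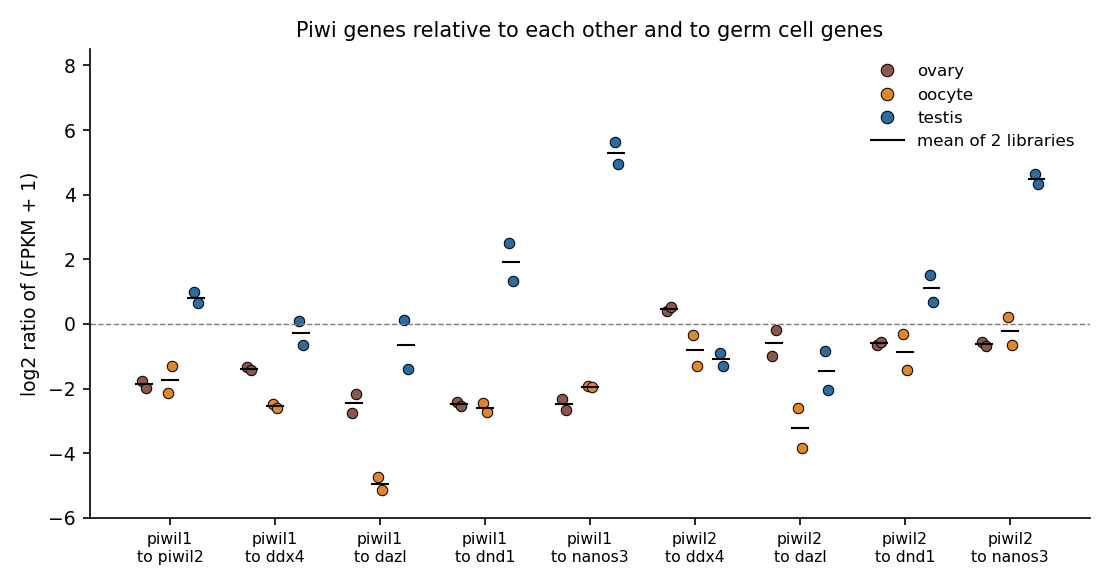
Log2 ratio of (FPKM + 1) of each Piwi gene to the other and to 4 germ cell genes, with each point a library, a line at the mean of 2 libraries and a dashed line at equal levels. For piwil1 the testis points lie above the female points in every ratio, while for piwil2 they lie below the ovary points relative to ddx4 and above them relative to dnd1 and nanos3.

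Cell type markers of the labelled tissues were checked in the same table. Meiosis and sperm genes (8 of 9 listed were matched) summed to 194 to 260 FPKM in testis and 6.56 to 14.2 in the female libraries. Sertoli cell genes (3 of 4 matched) summed to 1247 and 1372 FPKM in testis against 4.28 to 28.2 elsewhere. Leydig cell genes (5 of 5) summed to 1056 and 2001 FPKM in testis against 13.1 to 36.8 elsewhere. Most of that testis sum was insl3, at 976 and 1899 FPKM. Of the Leydig list cyp17a1 was lower in testis than in oocyte. It was at 10.0 and 9.61 FPKM in testis, 31.5 and 19.9 in oocyte and 8.77 and 14.5 in ovary. Oocyte genes (8 of 9 matched) summed to 1713 to 2271 FPKM in the female libraries and to 35.3 and 39.7 in testis. Of that list h1-10 went the other way, and zp2.1 was listed at 0 in both ovary libraries. Within the female sums, zar1 was at 1102 and 1172 FPKM in ovary but 11.3 and 9.06 in oocyte. The largest part of the oocyte sums was h1m, at 1495 and 1852 FPKM. Connective tissue genes (3 of 4 matched) summed to 86.5 and 97.3 FPKM in testis and 5.14 to 30.1 in the female libraries. All 3 were higher in testis than in ovary, against 16.4% of all features. Only 1 of the 3 was higher in testis than in oocyte, against 22.3% of all features. After median-of-ratios scaling 3 were, against 33.8%. In oocyte replicate 2 col1a1a was at 8.70 FPKM and col1a2 at 8.56, against 12.3 and 13.3, and 8.84 and 9.62, in testis. The matched red cell gene, hbaa1 (1 of 3), was at 16.4 and 73.9 FPKM in testis and 0.184 to 3.76 elsewhere, and it was higher in testis than in either female tissue. White cell genes (3 of 4 matched) summed to 4.69 and 5.18 FPKM in testis and 0.973 to 3.61 elsewhere, and the 2 of 5 matched granulosa and theca genes, fshr and lhcgr, were each under 1 FPKM in every library. The part that differences in cell composition have in the Piwi results was not tested.

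Of the 8 matched meiosis and sperm genes, 6 were higher in testis than in each female tissue. Of all features, 16.4% were higher in testis than in ovary and 22.3% higher than in oocyte. These 6 genes passed the filter on low values only with their testis libraries. Their count is therefore partly set by the filter and is no test of likeness to piwil1. The other 2, spo11 and spata18, did not pass in either comparison, but after median-of-ratios scaling spo11 was higher in both and spata18 was higher than in oocyte. The synaptonemal complex gene sycp1 was at 78.1 and 41.5 FPKM in testis and at 0.36 to 1.75 in the female libraries. Its partner sycp3 was at 68.4 and 63.8 FPKM in testis and at 0.27 to 0.521 elsewhere. The recombinase gene dmc1 was at 16.7 and 9.31 FPKM in testis and under 0.1 in the female libraries. Unlike these genes, piwil1 was present in every ovary and oocyte library at 4.98 FPKM or more, and spo11, which makes the breaks that start recombination, was at 7.6 and 7.9 FPKM in testis and 2.92 to 7.07 in the female libraries.

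The 2 testis libraries differed in piwil1 more than most features of like level. Replicate 1 held 1.72-fold the level of replicate 2, a log2 difference of 0.77, which was larger than in 87.4% of the 342 features within 0.5 of its mean log2 level in testis. In the same direction, replicate 1 held 1.88-fold the sycp1, 2.08-fold the sycp2 and 1.79-fold the dmc1 of replicate 2, against a median of 1.07-fold over all tested features. The other matched meiosis and sperm genes were at 1.17-fold (tekt1), 1.11-fold (tssk6), 1.07-fold (sycp3), 0.963-fold (spo11) and 0.901-fold (spata18), and ddx4 at 1.03-fold. For piwil2 the ratio was 1.37-fold. In the opposite direction, the Leydig cell hormone gene insl3 stood at 0.514 of its replicate 2 level and dazl at 0.58. These ratios describe a pair of libraries, and what part the meiotic genes or any other gene had in the spread of piwil1 was not tested.

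**Figure D3:**
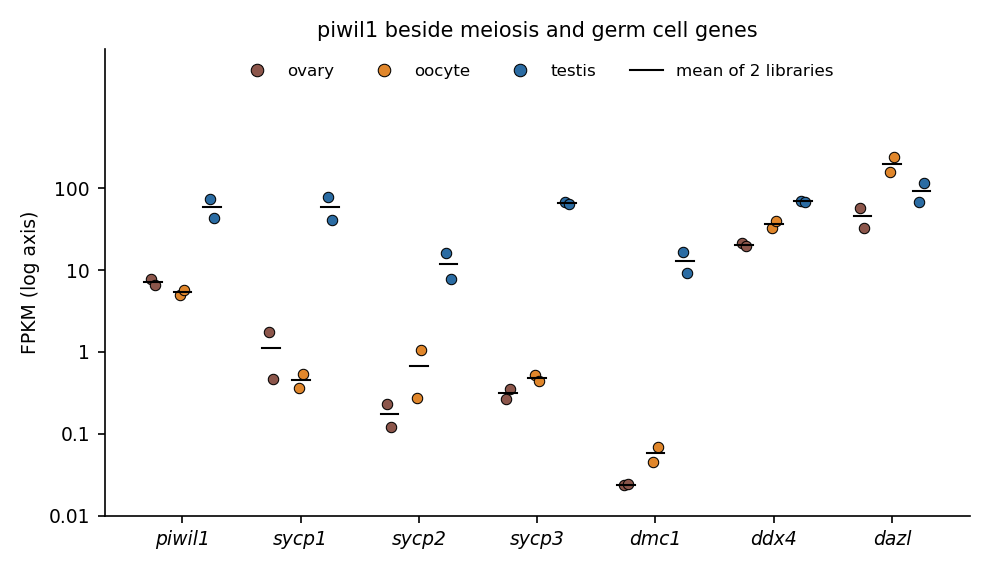
FPKM on a log axis of piwil1, 4 meiosis genes and 2 germ cell genes, with each point a library and a line at the mean of 2 libraries. The meiosis genes are at 1.75 FPKM or less in every female library, whereas piwil1 is at 4.98 FPKM or more.

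The spread between replicates in the female tissues differed between the genes. In ovary the replicates of piwil2 differed by 0.03 on the log2 scale, and 7.28% of the 1457 features at like level had a smaller difference. In oocyte they differed by 0.66, more than in 80.8% of 1626 such features, with the higher value in replicate 1. The replicates of piwil1 differed by 0.19 in ovary, more than in 46.9% of features at like level, and by 0.18 in oocyte, more than in 25.7%.

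Features whose profile was closest to each Piwi gene were found by the root mean square difference of log2(FPKM + 1) over the 6 libraries, after each feature was centred on its own mean. With names as the reference table spells them, nearest to piwil1 were si:dkeyp-116a7.2 (0.114, Pearson r 0.997 over 6 libraries), DNAH2 (0.133), si:ch211-66h3.4 (0.135), ZSWIM2 (0.141) and si:dkey-210j14.4 (0.147). Their mean levels in testis were 9.08 to 10.3 FPKM, and they were under 1 FPKM in every female library. They thus passed the filter only through testis, and the 1 FPKM added before the log2 largely set the size of their differences. They resemble piwil1 on this scale only, and not in level or in plain fold. For si:dkeyp-116a7.2 the means were 9.08 FPKM in testis and 0.196 in ovary, against 59.2 and 7.19 for piwil1. Nearest to piwil2 were chtopb (0.0895), CCDC25 (0.0936), TMEM237 (0.129), BBS2 (0.151) and fbxo11b (0.153), with mean levels in testis of 1.19 to 9.16 FPKM. The 1 FPKM added also weighs on the low ones of these. For TMEM237 the means were 1.19 FPKM in testis and 0.406 in oocyte, against 32.5 and 20.5 for piwil2. The lists depended on the measure. With Pearson correlation as the measure, 0 of the 5 nearest to piwil1 and 2 of the 5 nearest to piwil2 were found again, and after median-of-ratios scaling 1 of 5 for each. From piwil1, piwil2 was at place 2807 of 13716.

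Other genes of the piRNA pathway were taken from a list of 26 symbols, of which 18 were matched and all 18 passed the filter on low values. Between testis and ovary, 4 of them rose in testis, 6 fell and 8 did not pass, against 16.4% of all features higher and 43.8% lower. Their median log2 difference was -0.66, and that of all tested features was -0.82. After median-of-ratios scaling 8 were higher and 2 lower, against 27% and 22.9% of all features, with a list median of 0.49. The split between higher and lower members thus changed with the scaling.

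The pathway genes that rose in testis over ovary with piwil1 were pld6, ddx4, tdrd7a and tdrd12. The gene of the mitochondrial enzyme that cuts piRNA precursors in flies and mice, pld6 (zucchini), was at 31.2 and 34.8 FPKM in testis against 7.98 and 6.69 in ovary (log2 difference 2.03, SE 0.183, limma adjusted p = 0.000144). The rise of ddx4 was 1.72 (SE 0.183, limma adjusted p = 0.000274). Those of the Tudor domain genes tdrd7a (1.27, limma adjusted p = 0.0119) and tdrd12 (1.06, limma adjusted p = 0.00511) each ended when ovary replicate 2 or testis replicate 2 was left out, with limma adjusted p-values of 0.0692 and 0.0791 for tdrd7a and of 0.0339 and 0.0501 for tdrd12, whose difference without that ovary library was 0.87. None of these 4 had a difference as large as that of piwil1. Short of the fold threshold, but with limma adjusted p under 0.05, were tdrd9 (0.996) and stk31 (0.79). On the lower side tdrkh (-0.88), fkbp6 (-0.80) and tdrd1 (-0.68) were short of it in the same way. After median-of-ratios scaling tdrd9 and stk31 passed as higher in testis (2.09 and 1.89).

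On the deposited scale 6 of the list fell in testis relative to ovary. The largest decrease was in parn, a poly(A) ribonuclease gene whose worm relative trims piRNA ends, from 213 and 246 FPKM in ovary to 5.93 and 7.49 in testis (log2 difference -4.90, limma adjusted p = 0.000108). The gene of the arginine methyltransferase Prmt5, which in flies and mice modifies Piwi proteins for binding by Tudor domains, fell from 43.1 and 39.7 FPKM to 6.27 and 6.53 (-2.52, limma adjusted p = 8.72e-05). Both were lower after median-of-ratios scaling as well, by -3.82 and -1.44. The remaining decreases, in the Piwi cofactor gene gtsf1, in asz1, whose product sits at mitochondria in mouse germ cells, in tdrd5 and in henmt1, did not pass after that scaling, and the call for asz1 (limma adjusted p = 0.0448) ended when any of the ovary or testis libraries was left out (0.0884 to 0.204).

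**Figure D4:**
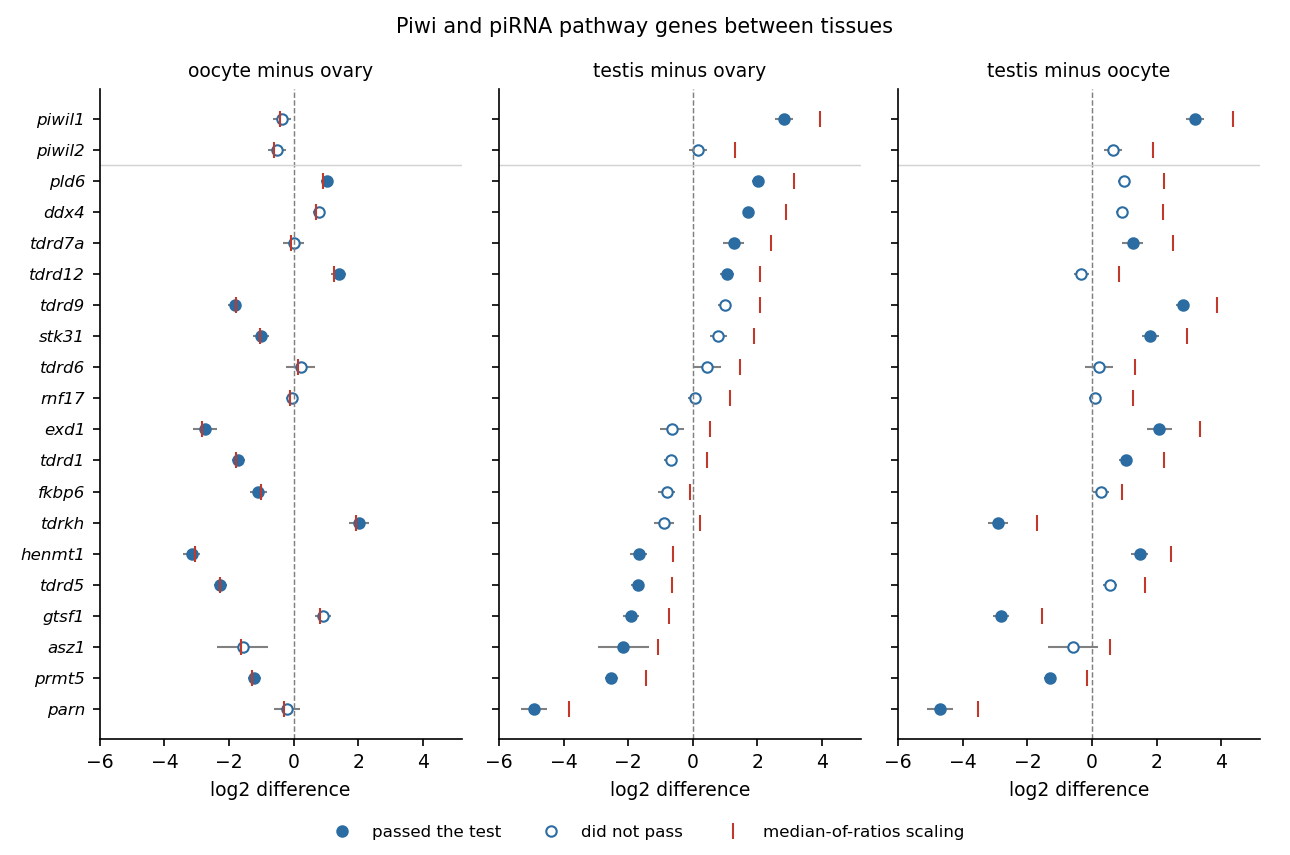
Log2 difference of log2(FPKM + 1) between tissues for piwil1, piwil2 and 18 piRNA pathway genes, with grey bars for the SE, filled circles for genes that passed the test and open circles for those that did not. Red ticks mark the values after median-of-ratios scaling, which lie to the right of the circles in both testis comparisons and close to them between oocyte and ovary.

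Between the mature oocyte and the whole ovary, where neither Piwi gene passed, 3 of the 18 pathway genes were higher in oocyte and 8 lower, against 26.8% and 22.2% of all features. Lower in oocyte was henmt1, which encodes the enzyme that methylates the ends of piRNAs, at 1.15 and 1.46 FPKM against 22.3 and 16.8 in ovary (log2 difference -3.15, limma adjusted p = 0.00024). The exonuclease-domain gene exd1 fell from 253 and 352 FPKM in ovary to 56.4 and 34.1 (-2.74, limma adjusted p = 0.00115). Tudor domain genes fell as well, tdrd5 (-2.27, limma adjusted p = 0.000282), tdrd9 (-1.82, limma adjusted p = 0.000528) and tdrd1 (-1.72, limma adjusted p = 0.000657), and so did prmt5, the co-chaperone gene fkbp6 and stk31, which encodes a protein with Tudor and kinase-like domains. The call for fkbp6 ended without ovary replicate 1 (difference -0.79) or oocyte replicate 1 (limma adjusted p = 0.0506), and that for stk31 without either ovary library or oocyte replicate 1 (0.053 to 0.0604). On the higher side was tdrkh, a Tudor domain gene whose product sits on mitochondria in mice. It was at 69.4 and 113 FPKM in oocyte against 26.0 and 16.8 in ovary (2.03, limma adjusted p = 0.00181). Next came tdrd12 (1.39) and pld6 (1.03). Both gtsf1 (0.91) and ddx4 (0.78) were higher in oocyte with limma adjusted p under 0.05 but short of the fold threshold. Quantile normalization made gtsf1 pass (1.66), and median-of-ratios scaling did not (0.81). The call for pld6 ended without ovary replicate 2 (0.92), without oocyte replicate 2 (0.94) and after median-of-ratios scaling (0.92). The level of asz1 was 4.28 and 31.9 FPKM in the oocyte libraries, and its difference passed, among the alternatives run, only without the higher of them (-2.89, limma adjusted p = 0.0015).

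In the comparison of testis with oocyte, 6 pathway genes were higher in testis and 4 lower, against 22.3% and 45.6% of all features, and after median-of-ratios scaling 11 were higher and 3 lower, against 33.8% and 29.5%. The helicase gene tdrd9 had the largest increase, from 1.54 and 1.52 FPKM in oocyte to 18.7 and 15.0 in testis (log2 difference 2.81, limma adjusted p = 4.1e-05), close to the 3.19 of piwil1. Increases were also found in exd1, stk31, henmt1, tdrd7a and tdrd1, of which tdrd1 did not pass without oocyte replicate 2 (0.96) or testis replicate 1 (0.84), and tdrd7a without oocyte replicate 1 (limma adjusted p = 0.0588) or testis replicate 2 (0.0736). Short of the fold threshold, but with limma adjusted p under 0.05, were pld6 (0.999), ddx4 (0.94) and tdrd5 (0.56), each higher in testis. They passed after median-of-ratios scaling (2.22, 2.19 and 1.63). The decreases were in parn, tdrkh, gtsf1 and prmt5, and that of prmt5 did not pass after median-of-ratios scaling (-0.14). Across the 18 genes, tdrd9 was the nearest to piwil1 in profile, at a root mean square difference of 0.803. The nearest to piwil2 was rnf17, at 0.368. Among all 13716 other tested features they were only at places 1282 and 480. Pearson r was 0.83 for tdrd9 with piwil1 and 0.12 for rnf17 with piwil2. By that measure stk31 was closer to piwil1 (0.88) and tdrd9 closer to piwil2 (0.79). The Tudor and RING domain gene rnf17 was at 9.44 to 11.9 FPKM in all 6 libraries and, like piwil2 and tdrd6, passed in no comparison on the deposited scale. The piwil1 pattern, higher in testis than in each female tissue with no call between these, was found in 1 of the 18. This gene was tdrd7a, whose calls ended without the libraries named above. Of all tested features 12.7% had the pattern on this deposited scale. After median-of-ratios scaling ddx4, pld6, tdrd6 and rnf17 had it as well as tdrd7a, and so did piwil2. The share of all features with the pattern was not computed on that scale.

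The Ago branch of the Argonaute family, which works with microRNAs throughout the body, had another order. The summed FPKM of ago1, ago2, ago3a and ago4 was 16.4 and 15.2 in ovary, 147 and 211 in oocyte, and 4.08 and 6.0 in testis. Most of the sum was ago4 in every library, and ago3b was not matched. Between testis and ovary ago1, ago2 and ago3a did not pass. The summed FPKM of the Piwi genes was 36.3 and 35.8 in ovary, 30.4 and 21.4 in oocyte, and 112 and 71.1 in testis. Piwi genes held 2.21-fold and 2.36-fold the level of these Ago genes in ovary, 0.207 and 0.101 of it in oocyte, and 27.5-fold and 11.8-fold in testis. No library of a tissue overlapped with one of another in that ratio, which does not depend on scaling and was not tested.

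Each of the 4 Ago genes was higher in oocyte than in ovary, whereas the Piwi genes did not pass in that comparison. However, ago1, ago2 and ago3a passed the filter on low values only with their oocyte libraries. Their calls are therefore partly set by the filter and are no test of a contrast with the Piwi genes. Of these, ago2 was at 11.8 and 30.3 FPKM in oocyte and at 0.553 and 0.407 in ovary (log2 difference 3.76, limma adjusted p = 0.000478). The level of ago4 was 113 and 151 FPKM in oocyte, 14.9 and 13.8 in ovary and 2.94 and 4.51 in testis. Together with dicer1, drosha, dgcr8, xpo5 and tarbp2, which encode factors of microRNA processing and export, 9 of 10 listed symbols were matched and tested. Of these, 8 were higher and 0 lower in oocyte than in ovary, against 26.8% and 22.2% of all features. The gene outside that count, xpo5, at 3.55 and 8.65 FPKM in oocyte against 11.1 and 11.3 in ovary, did not pass (limma adjusted p = 0.069, and 0.00286 with a difference of -1.42 without oocyte replicate 2). In testis 0 were higher and 9 lower than in oocyte, against 22.3% and 45.6% of all features. Through ago1, ago2 and ago3a, this count and that of 8 between oocyte and ovary are partly set by the filter. Relative to ovary 0 were higher and 5 lower in testis, against 16.4% and 43.8%. In ovary the mean log2(FPKM + 1) of ago1, ago2 and ago3a was 0.31, 0.56 and 0.82. A fall by the threshold of 1 was therefore not possible for these genes. After median-of-ratios scaling 8 of the 9 genes were lower in testis than in oocyte, against 29.5% of all features. Relative to ovary 2 were then lower in testis, against 22.9%, with 0 higher in both comparisons.

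**Figure D5:**
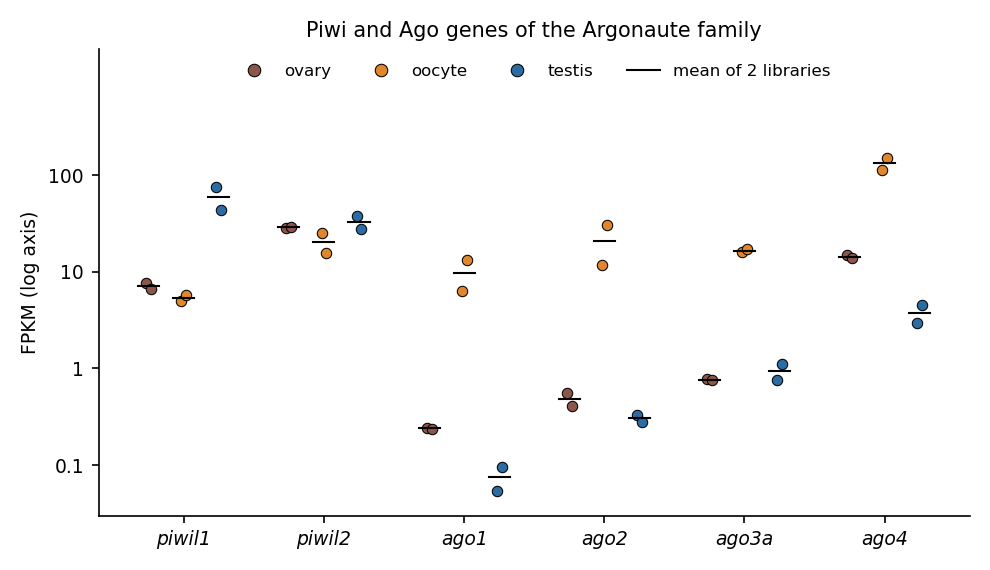
FPKM on a log axis of the Piwi genes and 4 Ago genes, with each point a library and a line at the mean of 2 libraries. The Ago genes are highest in the oocyte libraries, where ago4 reaches 151 FPKM, and piwil1 is highest in the testis libraries, at 74.8 and 43.6 FPKM.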

How the data were processed

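The deposited expression table gives FPKM values in 1 column for each library, computed by the authors. TopHat, Bowtie2, Cuffnorm and the genome build GRCz10 are named, without versions, per the submitters' processing notes. The annotation, the scaling setting of Cuffnorm and the handling of reads shared between related or overlapping genes are not given in the sources used here. Per the labels' protocols, libraries were made with a TruSeq RNA kit, called strand-specific and read as pairs of 76 bases. Read numbers were not given, so no counting interval is printed, and 2 libraries per tissue limit the precision.

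Symbols came from a reference table of gene names, which matched 26411 of the features, compared without regard to case. Sequences and genome positions were not used here. FPKM values were transformed to log2(FPKM + 1), features with at least 1 FPKM in at least 2 libraries were kept (13717), and limma 3.58.1 (R 4.3.3, eBayes with trend=TRUE) fitted 1 mean for each tissue over the 6 libraries together, with 3 residual degrees of freedom and two-sided tests. The fit was tested on simulated data. Folds of means are of plain FPKM. Log2 differences understate the change of low genes.

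The members and lists were chosen with earlier results of these data known. Named were the Piwi genes, members of the 2 lists and the 5 nearest features of each Piwi gene. The crossed block was added after the data were seen.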

Additional observations from a re-analysis of the deposited data

Results flagged for a closer look

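The log2 ratio of piwil1 to piwil2 was above 0 in both testis libraries and below 0 in all ovary and oocyte libraries. It differed by 2.68 between testis and ovary and by 2.53 between testis and oocyte. The exact permutation test of each difference gave p = 0.333, the smallest value possible with 2 libraries against 2. Over all 6 libraries, the exact permutation test between the tissues gave p = 0.2, where 0.0667 was the smallest possible.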

How the results depend on the processing

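For piwil1, the higher level in testis passed under all 16 alternatives, with log2 differences of 2.45 to 4.09 against ovary (limma adjusted p 5.19e-05 to 0.004) and 2.81 to 4.38 against oocyte (2.63e-05 to 0.0025). For piwil2, testis against ovary passed under median-of-ratios scaling (1.30) and quantile normalization (1.31), and testis against oocyte passed under these (1.89 and 2.08) and under rescaling to a sum of 1000000 without features above 10000 FPKM (1.25). Under these scalings the median of all tested features was -0.02, -0.21 and -0.41 for testis from ovary and 0.03, -0.22 and -0.51 for testis from oocyte, against -0.82 and -0.79 as deposited. With 1 library left out, the piwil2 difference of testis from ovary ranged from -0.0659 to 0.37, the negative value without testis replicate 1, that of testis from oocyte from 0.33 to 0.99, that of oocyte from ovary from -0.84 to -0.18, and the oocyte to ovary difference of the Piwi ratio from -0.27 to 0.57. The Argonaute and microRNA genes called lower in testis than in ovary numbered 2 under median-of-ratios scaling and 3 under quantile normalization, against 5. Of all 13717 tested features, 3136 and 3835 were called lower under these 2 scalings, against 6011 as deposited. The cause of these changes was not tested. Whether equal replicate numbers pair the libraries was not settled, since each tissue gives only 1 replicate difference. These differences correlated across features at -0.346 for ovary and oocyte, 0.243 for ovary and testis and -0.214 for oocyte and testis. With the replicate block 6679, 8217 and 9273 features were called between oocyte and ovary, testis and ovary, and testis and oocyte, against 6716, 8262 and 9311 without it, and with the oocyte numbers crossed 6819, 8365 and 9386. The block changed no call for the Piwi genes and ended that of asz1 between testis and ovary (limma adjusted p = 0.0502). Where a library left out leaves 1 in a tissue, that library is assumed to vary like the others.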
